A study of Daphnia magna with 230 samples.

Results

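The 2 transcripts described here, Dapma7bEVm002278t1 and Dapma7bEVm027691t1, are annotated as mitochondrial, nonspecific 5-aminolevulinate synthase (ALAS), and they are 2 of the 29127 transcripts in the table of *D. magna*. They were chosen by their annotation and by their measured levels in 1 contrast, since the study lists both as lower in unspiked wetland water than in unspiked laboratory water, so that this contrast is given below as a description, with no test. ALAS joins glycine and succinyl-CoA in the mitochondrion and so makes 5-aminolevulinate, the first committed step of heme synthesis in animals. Heme is then built into hemoglobins, cytochromes, cytochrome P450 enzymes and peroxidases. In *Daphnia*, hemoglobin circulates freely in the hemolymph, is made of chains with paired globin domains, and is known to increase when oxygen is low and after exposure to juvenoid hormones. Transcript Dapma7bEVm011064t1, annotated as a di-domain hemoglobin precursor, is set beside the ALAS pair throughout.

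RNA was measured in pools of 5 neonates, which were less than 24 h old at the start and were exposed for 96 h. In the wetland experiment, 69 libraries came from 6 wetland waters spiked with pyriproxyfen, a juvenile hormone analog, in ethanol (labelled Wetland-119 ng/L and called the lower dose), from the same waters with ethanol alone (0 ng/L, called unspiked), and from laboratory well water at 0 ng/L, at the same lower dose (Lab Water-119 ng/L) and at a higher dose (Lab Water-239 ng/L). The methods describe the laboratory group at 0 ng/L as water only, whereas pyriproxyfen was added in ethanol. Contrasts that use this group, the interaction of dose and water among them, cannot tell ethanol apart from dose or water. Breen, LeSouer and Woodland were of low quality and Douglas, Kandiyohi and Kerk of high quality by the index of biological integrity. In the stormwater experiment, 44 inflow, 45 outfall and 50 pipe libraries came from 9 sampling points (3 inflows and 3 outfalls of iron-enhanced sand filters, and 3 pipes) in spring, early summer and late summer, with no pyriproxyfen added, and 21 libraries came from laboratory water controls that carry the same season labels. The pools of a group were drawn from 1 exposure to 1 water sample, so that p-values measure the spread between pools; the labels give a single source of animals, whereas the methods speak of different genetic backgrounds in the 2 experiments. Library totals were between 5040650 and 15037010 estimated counts, at which 3 counts correspond to 0.2 to 0.595 counts per 1000000 counts of the library (CPM), and both ALAS transcripts lay above this floor in every library. Neonates were taken whole, so that fewer cells that make the transcripts and less RNA per cell cannot be told apart.

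The pair moved as a unit. Over the 69 libraries of the wetland experiment, the levels of the pair (log2 of CPM + 1) had a Pearson r of 0.995 and a Spearman rho of 0.986, and over the 160 assigned libraries of the stormwater experiment these were 0.991 and 0.985. Within groups the relation was as close, with r of 0.98 and 0.99 for deviations from the group means. Dapma7bEVm027691t1 took a median of 51.7% of the pair's counts in the wetland experiment (range 45.5% to 61.4%) and 55.7% in the stormwater experiment (43.4% to 63.6%). Reads that match several transcripts are divided among them by the counting program, so that how much of each value belongs to which ALAS transcript is uncertain, and the pair is not 2 independent measurements.

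Unspiked laboratory water had the highest median ALAS level of the wetland experiment, although 1 of its libraries was low. Dapma7bEVm002278t1 had 421, 4382, 3891, 2777 and 4204 CPM in the 5 unspiked laboratory libraries, and in the 30 unspiked wetland libraries it had a lowest value of 123.6, a median of 248 and a highest of 3706 CPM. Replicate 1 of laboratory water stood far below the other 4 pools of its group, and replicate 4 of Kerk was the highest unspiked wetland pool. By Dixon's criterion, given at the end, only the former stood apart from its group, and only for Dapma7bEVm002278t1. The ALAS comparisons that rest on these libraries are also given without them. The description of the contrast that chose the pair is a log2 fold change, wetland over laboratory water, of -2.66 ± 0.53 (SE) for Dapma7bEVm002278t1 and -2.66 ± 0.55 for Dapma7bEVm027691t1; 0.777% of all transcripts were called lower in it. Without replicate 1 of laboratory water these were -2.94 and -2.95. The study's list rests on these libraries, and every comparison below that uses unspiked laboratory or unspiked wetland water shares them.

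**Figure D1:**
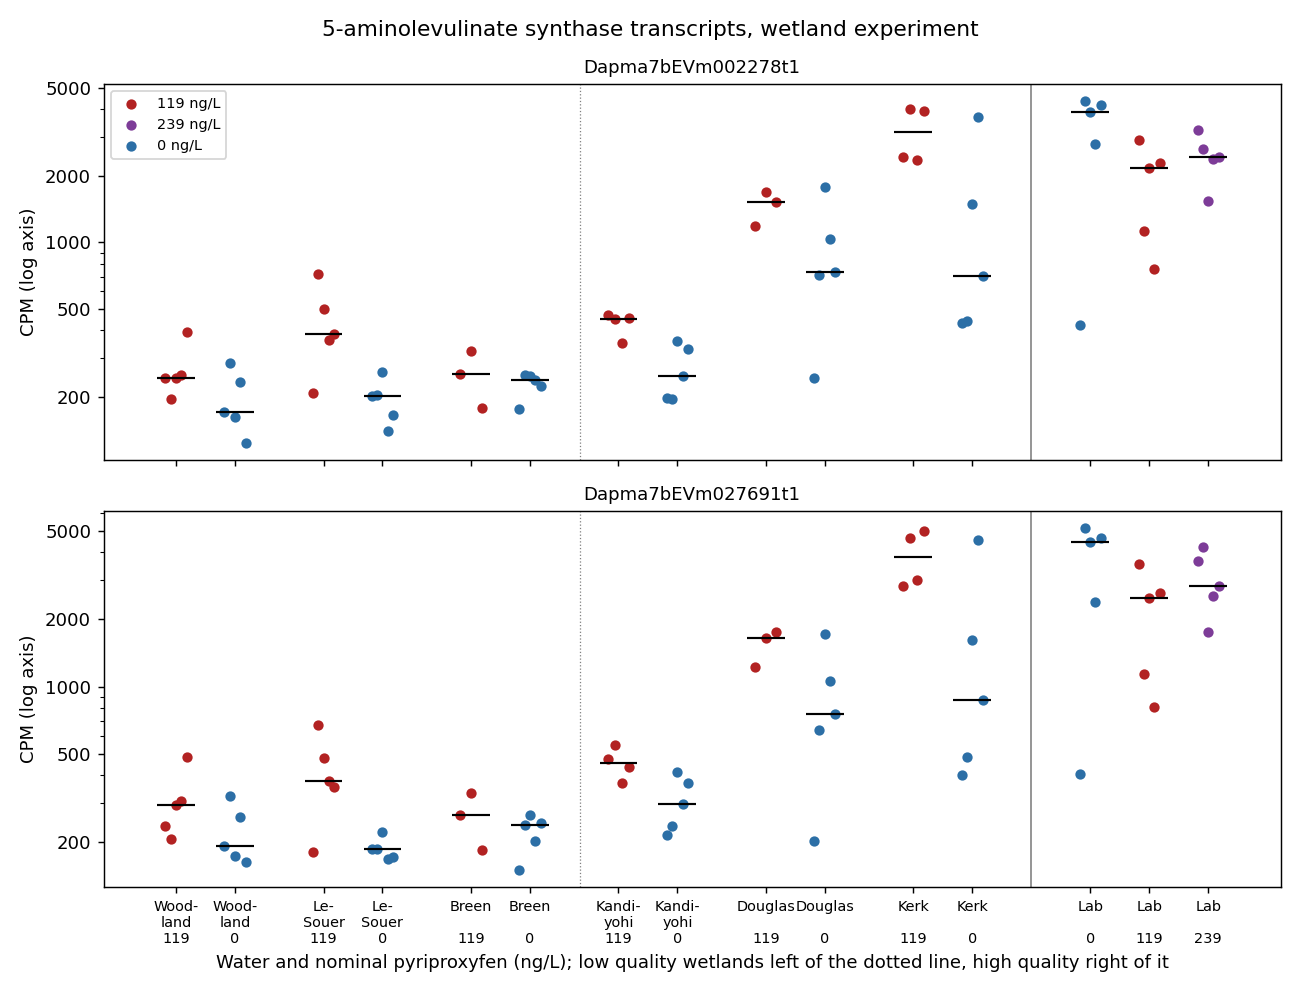
CPM (log axis) of Dapma7bEVm002278t1 (top) and Dapma7bEVm027691t1 (bottom) in each library of the wetland experiment, by water and nominal pyriproxyfen dose in ng/L; points are libraries and bars are group medians. The low quality wetlands left of the dotted line sit between 123.6 and 719 CPM for Dapma7bEVm002278t1, Douglas and Kerk sit mostly higher, and unspiked laboratory water has 4 libraries between 2777 and 4382 CPM and 1 at 421 CPM.

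Among the unspiked wetland waters, ALAS was high in Kerk and Douglas and low in Breen, LeSouer, Woodland and also Kandiyohi. In Kerk water Dapma7bEVm002278t1 had 431, 439, 1494, 3706 and 703 CPM, and in Douglas water it had 244, 715, 1788, 1032 and 733 CPM. In Kandiyohi water, the third of high quality, it had 197, 196, 358, 248 and 330 CPM. The Kandiyohi pools therefore overlapped those of the low quality wetlands and lay below every Kerk pool. Breen water gave 176, 251, 248, 238 and 223 CPM, LeSouer water 202, 204, 258, 139.4 and 165 CPM, and Woodland water 171, 283, 162, 232 and 123.6 CPM. Dapma7bEVm027691t1 had 402 to 4521 CPM in Kerk water, 204 to 1728 in Douglas water, 216 to 415 in Kandiyohi water and 150 to 325 CPM over the 3 low quality wetlands. For this transcript the highest Kandiyohi pool lay above the lowest Kerk pool, so that the ranges of these waters met.

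The 6 unspiked wetlands differed in both ALAS transcripts. The fitted range, highest over lowest wetland, was 2.77 on the log2 scale for Dapma7bEVm002278t1 (edgeR's quasi-likelihood test, adjusted p = 0.00042) and 2.97 for Dapma7bEVm027691t1 (adjusted p = 0.00045), and 3.78% of all transcripts were called. By p-value they ranked 24 and 28 of 25893 transcripts tested. Leaving out each library in turn kept both calls, with ranges between 2.40 and 3.00 and between 2.33 and 3.22. Of the 11 globin transcripts named in the study's tables, 4 were called among the 6 wetlands, as were 1 of 14 cytochrome P450 transcripts, 3 of 17 heme peroxidases and Dapma7bEVm001221t1, a heme-binding protein. The study listed these transcripts as changed in contrasts of the wetland experiment, some of which use the same unspiked wetland libraries. These counts are therefore a description and no independent evidence.

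Both ALAS transcripts were called lower in low quality than in high quality wetland water, in a fit that called few transcripts. Dapma7bEVm002278t1 had a lowest value of 123.6, a median of 204 and a highest of 283 CPM in the 15 low quality libraries, against 196, 439 and 3706 CPM in the 15 high quality libraries. All 15 low quality libraries lay below the high quality median and 6 of them lay below every high quality library; for Dapma7bEVm027691t1 these counts were 15 and 9. The log2 fold change, low over high quality, was -2.01 ± 0.35 for Dapma7bEVm002278t1 (4.04 times lower, adjusted p = 0.0272) and -2.11 ± 0.36 for Dapma7bEVm027691t1 (4.32 times lower, adjusted p = 0.0261), both by edgeR's quasi-likelihood test. Only 4 of 25893 transcripts were called in this comparison (0.0154%); the other two, Dapma7bEVm000324t1 at -3.28 ± 0.56 and Dapma7bEVm027442t1 at -3.38 ± 0.61, are annotated as conserved proteins and are named here because of this count. DESeq2 called 24 transcripts, the ALAS pair among them at -2.05 and -2.15 (adjusted p = 1.12e-05 and 3.78e-06). By edgeR 1252 transcripts (4.84%) had an unadjusted p under 0.05, so that few calls do not mean few differences.

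This difference rests on few wetlands. Over the means of the 6 wetlands, in log2(CPM + 1), low minus high quality was -1.50 for Dapma7bEVm002278t1 and -1.55 for Dapma7bEVm027691t1, with all 3 low quality wetlands below all 3 of high quality. The two-sided exact permutation test of 3 against 3 wetlands gave p = 0.1, the smallest p this design allows. The call ended when counts were summed per wetland (-1.97 and -2.05, adjusted p of 1 for both), and when any wetland other than Kandiyohi was left out; without Kerk the values were -1.58 and -1.57. It also ended on leaving out any 1 of 9 of the 30 libraries (Breen 1 and 2, Douglas 3, Kerk 3, LeSouer 2, 4 and 5, Woodland 3 and 5), with adjusted p-values up to 0.0673 and 0.0652. Without replicate 4 of Kerk the call held at -1.63 (adjusted p = 0.0312) and -1.65 (adjusted p = 0.029). None of the other 44 heme transcripts was called between the quality classes, beside 0.0154% of all transcripts. At so low a share this does not set ALAS apart from them. The hemoglobin transcript Dapma7bEVm011064t1 was at -2.47 ± 0.64 (edgeR, adjusted p = 0.42) and ranked 32 of 25893 by p-value.

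With pyriproxyfen at the lower dose, ALAS was again lower in the low quality wetlands. Dapma7bEVm002278t1 had a lowest value of 178, a median of 252 and a highest of 719 CPM in the 13 spiked low quality libraries, against 349, 1528 and 4029 CPM in the 11 spiked high quality libraries, and all 13 lay below the high quality median. Over wetland means, low minus high quality was -2.08 for Dapma7bEVm002278t1 and -2.17 for Dapma7bEVm027691t1, again with p = 0.1 in the exact permutation test. The test of whether the effect of the lower dose differed between quality classes gave -0.43 ± 0.53 and -0.51 ± 0.54 (edgeR, adjusted p of 1 for both), in a fit that called 0 of 26166 transcripts by edgeR (0%) and 0 by DESeq2, with 962 at an unadjusted p under 0.05. Without replicate 4 of unspiked Kerk water these were -0.85 and -0.99 (adjusted p of 1 for both).

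In all 6 wetlands the mean ALAS level on the log2 scale was higher at the lower dose than unspiked, although the test over all libraries, with no covariate, was not passed. In Kerk water Dapma7bEVm002278t1 had 2431, 4029, 2362 and 3919 CPM at the lower dose, against the 431 to 3706 CPM given above for unspiked Kerk water. In LeSouer water it had 208, 719, 501, 363 and 384 CPM at the lower dose, against 139.4 to 258 CPM unspiked. In both waters the ranges overlapped through a single library, unspiked replicate 4 of Kerk and spiked replicate 1 of LeSouer. Spiked Douglas water gave 1186, 1693 and 1528 CPM and spiked Kandiyohi water 470, 448, 349 and 453 CPM. Spiked Woodland water gave 244, 195, 243, 250 and 395 CPM, and spiked Breen water 252, 324 and 178 CPM. In Kandiyohi 3 of the 4 spiked pools lay above every unspiked pool, and in Douglas, Woodland and Breen the spiked and unspiked ranges overlapped more widely.

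Over all wetlands, the lower dose over 0 ng/L log2 fold change was 0.88 ± 0.39 for Dapma7bEVm002278t1 (edgeR, adjusted p = 0.118) and 0.96 ± 0.41 for Dapma7bEVm027691t1 (adjusted p = 0.103), and neither passed the test, in which 15.4% of all transcripts were called. A single water and a single library moved these values. Without the wetland Kerk they were 0.46 (adjusted p = 0.372) and 0.50 (adjusted p = 0.311). Without unspiked replicate 4 of Kerk alone they were 1.23 (adjusted p = 0.0142) and 1.37 (adjusted p = 0.00793), past the threshold. That library did not stand apart from its group by Dixon's criterion given at the end. With the wetland as a covariate the values were 0.72 ± 0.18 (adjusted p = 0.004) and 0.74 ± 0.19 (adjusted p = 0.0046), both past the threshold, and 0.84 and 0.87 without that library. The difference in mean log2(CPM + 1) within a wetland, lower dose minus 0 ng/L, averaged 0.84 ± 0.55 (SD, n = 6 wetlands) and 0.87 ± 0.58, and was above 0 in 6 of 6 wetlands. The two-sided exact sign-flip permutation test gave p = 0.03125 for each, the smallest p that 6 wetlands allow. Without Kerk the averages were 0.67 ± 0.39 (SD, n = 5 wetlands) and 0.68 ± 0.37, with p = 0.0625 in the exact permutation test, the smallest that 5 wetlands allow. The unspiked wetland libraries of this comparison also served to choose the pair, so that it is not independent of that choice.

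Within single wetlands, neither ALAS transcript was called in any of the 6 fits by edgeR. The log2 fold changes of Dapma7bEVm002278t1 were 1.30 ± 0.68 in Kerk (adjusted p = 0.419), 1.17 ± 0.32 in LeSouer (adjusted p = 0.145), 0.62 ± 0.23 in Kandiyohi (adjusted p = 0.434), 0.56 ± 0.52 in Douglas, 0.33 ± 0.27 in Woodland and 0.01 ± 0.26 in Breen. Of all transcripts, 1.93% were called in Kerk, 0.331% in LeSouer, 0.0444% in Kandiyohi, 3.66% in Douglas, 0.012% in Woodland and 0.0889% in Breen. Without replicate 4 of unspiked Kerk water the Kerk value was 2.19 (adjusted p = 0.0832). In LeSouer water DESeq2 called both, at 1.16 (adjusted p = 0.0173) and 1.14 (adjusted p = 0.0109).

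In laboratory water the ALAS levels with pyriproxyfen lay below the unspiked median, and the differences did not pass the test. Beside the 5 unspiked values given above, Dapma7bEVm002278t1 had 2897, 1123, 2182, 761 and 2299 CPM at the lower dose and 3224, 2639, 1538, 2379 and 2447 CPM at the higher dose. Dapma7bEVm027691t1 had 404, 5137, 4455, 2389 and 4634 CPM unspiked, 3537, 1139, 2484, 811 and 2622 CPM at the lower dose and 3646, 4204, 1748, 2544 and 2813 CPM at the higher dose. Every dosed pool of both transcripts lay below the unspiked median, while none lay below the low unspiked replicate 1. The pair was chosen for its high level in these 5 unspiked libraries. Lower values with pyriproxyfen are therefore favoured by that choice and are no independent finding. At the lower dose over 0 ng/L the log2 fold changes were -0.80 ± 0.55 and -0.72 ± 0.60 (edgeR, adjusted p = 0.437 and 0.497; 10.1% of transcripts called), and -1.08 and -1.0 without that replicate (adjusted p = 0.13 and 0.22). At the higher dose over 0 ng/L they were -0.38 ± 0.50 and -0.20 ± 0.54 (adjusted p = 0.79 and 0.91; 0.94% called), and without that replicate -0.66 and -0.49. At the higher over the lower dose they were 0.41 ± 0.39 and 0.51 ± 0.44 (adjusted p = 0.811 and 0.769), where edgeR called 0 transcripts (0%), DESeq2 called 0.556% of them and 1725 had an unadjusted p under 0.05.

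The other heme transcripts come from the study's lists of transcripts that changed in the contrasts of the wetland experiment. Most of the cytochrome P450 and peroxidase transcripts stand in its list for pyriproxyfen in laboratory water, so that their counts and medians in that contrast are largely set by this choice and are a description only. There 10 of 14 P450 transcripts were called lower and 2 higher, and 12 of 17 heme peroxidases, among them chorion peroxidase precursors, lower and 3 higher, beside 10.1% of all transcripts called. The medians of the log2 fold changes were -3.46 and -3.40, beside 0.01 over all transcripts tested. Dapma7bEVm006425t1, a ferric-chelate reductase, was at -7.02 ± 0.62, and Dapma7bEVm001221t1, annotated as heme-binding protein 2, at -6.81 ± 1.07. In wetland water at the lower dose over 0 ng/L, where 15.4% of all transcripts were called in either direction, 0 of 14 P450 transcripts were called, 2 of 17 peroxidases rose and 4 fell, and 9 of 11 globins rose and 1 fell (median 1.05, beside 0.02 over all transcripts). Some of these globins and peroxidases stand in the study's list for that contrast, and those counts are no independent evidence either.

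At the lower dose in both waters, ALAS was lower in wetland than in laboratory water in most pools but not past the test. Of the 24 spiked wetland libraries, 17 lay below all 5 spiked laboratory libraries and 2, both from Kerk, lay above all 5, for Dapma7bEVm002278t1 and likewise for Dapma7bEVm027691t1. The log2 fold changes, wetland over laboratory water, were -0.96 ± 0.64 and -0.97 ± 0.68 (edgeR, adjusted p = 0.452 and 0.472; 8.37% of transcripts called). The dose effect in wetland over laboratory water was 1.69 ± 0.97 and 1.69 ± 1.01 (interaction term, adjusted p = 0.351 and 0.38; 8.55% called). Without replicate 1 of unspiked laboratory water it was 1.92 and 1.93 (adjusted p = 0.276 and 0.307), and without unspiked replicate 4 of Kerk 1.98 and 2.04 (adjusted p = 0.184 and 0.187). For the hemoglobin transcript the same interaction was 9.01 ± 1.60 (adjusted p = 0.00044).

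**Figure D2:**
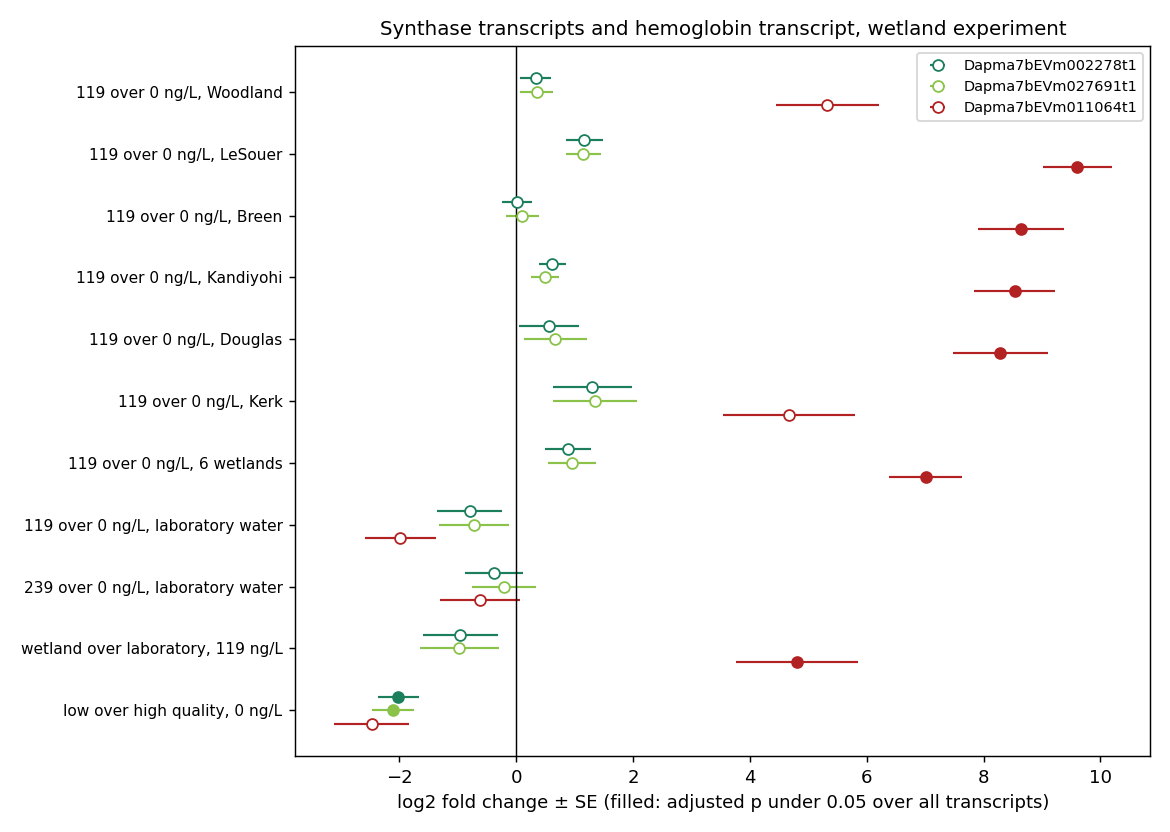
log2 fold change with its SE (horizontal axis) of both ALAS transcripts and of the hemoglobin transcript Dapma7bEVm011064t1 in the comparisons of the wetland experiment; filled points have an adjusted p under 0.05. The hemoglobin values at the lower dose over 0 ng/L lie between 4.67 and 9.60 in single wetlands, while those of Dapma7bEVm002278t1 lie between 0.01 and 1.30.

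Relative to ALAS, the hemoglobin transcript was higher in every spiked wetland library than in any unspiked one. Dapma7bEVm011064t1 was at or below 7.41 CPM in the unspiked wetland libraries other than Kerk replicates 3 (11.8 CPM) and 4 (91.8 CPM), and it was at 19.4 to 2357 CPM in those at the lower dose. Its lower dose over 0 ng/L log2 fold change over all wetlands was 7.01 ± 0.63 (edgeR, adjusted p = 1.64e-11), and it was called in Breen (8.64), Douglas (8.29), Kandiyohi (8.54) and LeSouer (9.60) but not in Kerk (4.67) or Woodland (5.33). DESeq2 called it in Kerk (4.66, adjusted p = 0.00011) and Woodland (5.37, adjusted p = 7.2e-08) as well. The study lists this transcript in the contrasts of wetland with laboratory water and of spiked with unspiked wetland water, so that its changes there are no independent finding. Per 100 CPM of the summed ALAS pair, hemoglobin stood at 4.80 to 319 CPM (median 35.9) in the 24 spiked wetland libraries, against 0 to 1.12 CPM (median 0.317) in the 30 unspiked ones. The 2 sets did not overlap. Of the spiked waters, Kerk, with the highest ALAS levels, had the narrow range of 4.99 to 12.5 CPM of hemoglobin per 100 CPM of ALAS, and LeSouer had 72.2 to 319 CPM. In laboratory water hemoglobin was at 6.41 to 39.7 CPM at the lower dose, against 20.6 to 195 CPM unspiked, with a log2 fold change of -1.98 ± 0.61 (edgeR, adjusted p = 0.0665; DESeq2, adjusted p = 0.00824).

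Across libraries the pair and the hemoglobin transcript were related in both experiments, to a degree that depended on the libraries taken. As a description over log2(CPM + 1), with all libraries of an experiment sharing its processing, the summed pair and Dapma7bEVm011064t1 had r = 0.43 and rho = 0.49 over the 69 libraries of the wetland experiment, and r = 0.62 and rho = 0.71 over the 160 libraries of the stormwater experiment. For deviations from group means these were 0.57 and 0.38 in the wetland experiment (0.37 and 0.30 without unspiked replicate 4 of Kerk and replicate 1 of laboratory water) and 0.60 and 0.56 in the stormwater experiment. By dose, r was 0.38 over the 24 spiked and 0.76 over the 30 unspiked wetland libraries, where rho was 0.39 and 0.36. Without replicate 4 of Kerk, r over the unspiked wetland libraries was 0.62 and rho 0.29, and over the 15 laboratory water libraries r was 0.66 and rho 0.70 (0.73 and 0.72 without replicate 1). Over the 21 stormwater controls r was 0.12 and rho 0.44. The summed pair had a rho with library total of -0.09 in the wetland and 0.13 in the stormwater experiment.

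**Figure D3:**
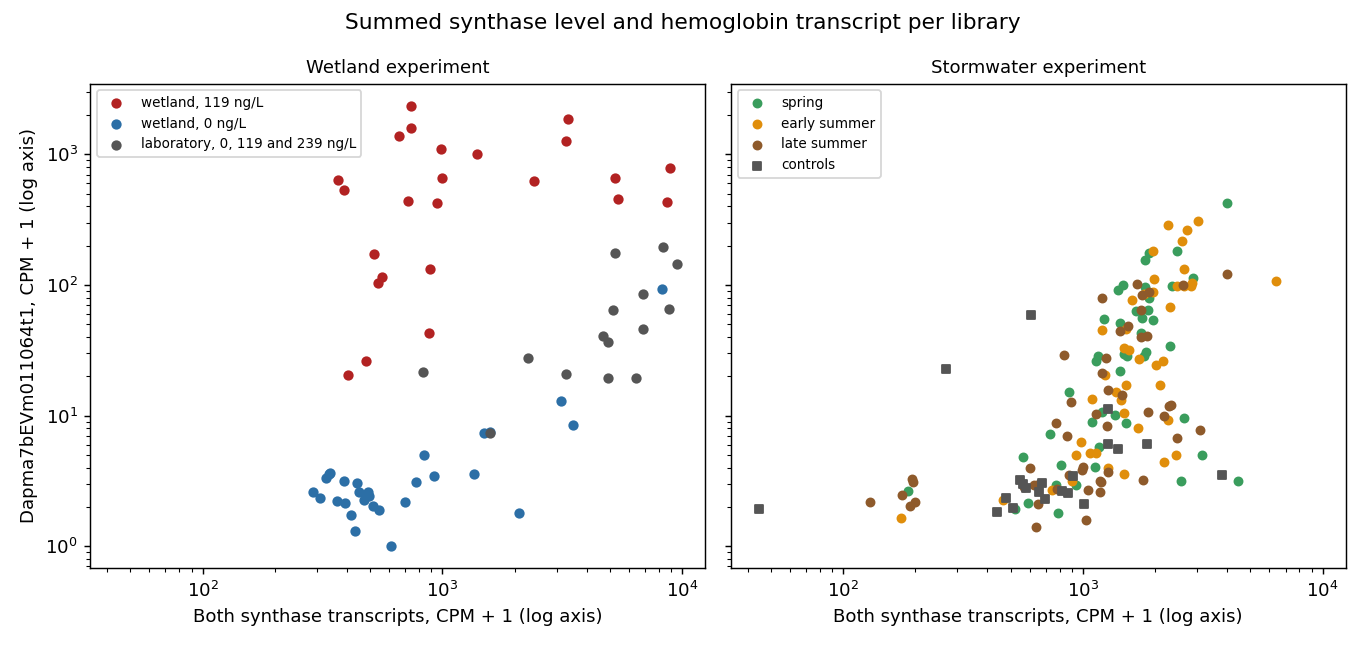
Summed CPM + 1 of both ALAS transcripts (horizontal, log axis) against CPM + 1 of the hemoglobin transcript Dapma7bEVm011064t1 (vertical, log axis), 1 point per library; left the 69 libraries of the wetland experiment, right the 160 of the stormwater experiment. The spiked wetland libraries stand above unspiked ones of like ALAS level, whereas the stormwater libraries form a single broad band.

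Few transcripts followed the pair more closely than hemoglobin did in stormwater. Among transcripts with a mean of at least 1 CPM, the 5 with the highest rho with the summed pair over the 160 stormwater libraries were Dapma7bEVm001149t1 (0.79), Dapma7bEVm015925t1 (0.75), Dapma7bEVm003196t1 (0.75), Dapma7bEVm004878t1 (0.73) and Dapma7bEVm011064t1 itself (0.71), of 16358. Over the 69 wetland libraries they were Dapma7bEVm005798t1 (0.90), Dapma7bEVm010142t1 (0.87), Dapma7bEVm002068t1, a globin (0.87), Dapma7bEVm028004t1 (0.85) and Dapma7bEVm015925t1 (0.84), of 16480, and the hemoglobin transcript ranked 110. For deviations from group means, rho lay between 0.56 and 0.74 for the 5 stormwater transcripts and between 0.43 and 0.62 for the 5 wetland ones. The wetland values over all libraries include the contrast that chose the pair, in which the globin Dapma7bEVm002068t1 was itself at -3.98 ± 0.47. Not all globins followed the pair over the wetland libraries. Of the 11, 4 had a negative rho over the wetland libraries, among them the di-domain hemoglobin precursors Dapma7bEVm029622t1 (mean 2299.5 CPM, rho -0.43, rank 16279) and Dapma7bEVm014981t1 (mean 687 CPM, rho -0.41, rank 16233), which had rho of 0.63 and 0.63 in stormwater and are named after their values were seen. Only Dapma7bEVm015925t1, annotated as an uncharacterized protein, was among the 5 in both experiments.

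In stormwater, ALAS was lower in late summer than in the earlier seasons. Over 45 spring, 44 early summer and 50 late summer libraries, the medians of Dapma7bEVm002278t1 were 651, 774 and 509 CPM, with ranges of 87.9 to 1987, 85.6 to 2692 and 58.6 to 1757 CPM. The ranges of the 3 seasons overlapped over most of their length. The log2 fold changes, late over early summer, were -0.73 ± 0.19 for Dapma7bEVm002278t1 (1.66 times lower; edgeR, adjusted p = 0.0013) and -0.76 ± 0.20 for Dapma7bEVm027691t1 (1.69 times lower, adjusted p = 0.00094), where 20.1% of all transcripts were called lower. All 9 alternatives kept both calls, with values between -0.76 and -0.68. Late summer over spring gave -0.48 ± 0.19 and -0.49 ± 0.19 (adjusted p = 0.0439 and 0.0453; 15.5% called lower), and 4 of 9 alternatives ended these calls. Early summer over spring gave 0.25 ± 0.16 and 0.28 ± 0.16 (adjusted p = 0.217 and 0.184; 35.3% called in either direction).

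Most globins fell, as did ALAS, between early and late summer, when 20.1% of all transcripts were called lower and 24.3% higher. Late over early summer, 8 of 11 globins fell and 0 rose (median -1.37, beside 0.04 over all transcripts tested), with Dapma7bEVm011064t1 at -1.77 ± 0.45 (3.42 times lower, adjusted p = 0.00072; -1.63 with counts summed per water sample, adjusted p = 0.0961, not past the threshold) and Dapma7bEVm020224t1, another globin, at -1.89 ± 0.25 (adjusted p = 9.00e-10). Of the 14 P450 transcripts 7 fell and 2 rose, and of the 17 heme peroxidases 9 fell and 4 rose. The ferric-chelate reductase transcript Dapma7bEVm006425t1 fell as well. These lists hold transcripts named in the study's tables, and their members can share reads.

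Against laboratory water controls of the same season, the ALAS pair was higher in stormwater in early summer. Dapma7bEVm002278t1 had a lowest value of 85.6, a median of 774 and a highest of 2692 CPM in the 44 early summer stormwater libraries, against 222, 333, 201, 97.8 and 284 CPM in the 5 early summer controls. Dapma7bEVm027691t1 had 88.05, 930 and 3719 CPM in stormwater, against 323, 488, 275, 171 and 324 CPM in the controls. For each transcript 41 of the 44 stormwater libraries lay above all 5 controls. The log2 fold changes were 2.12 ± 0.44 (4.34-fold; edgeR, adjusted p = 0.00058) and 2.01 ± 0.43 (4.04-fold, adjusted p = 0.00079), where 14.2% of all transcripts were called higher. Leaving out each control in turn gave 1.91 to 2.29 and 1.84 to 2.22 and kept both calls. Of the 11 globins 6 rose (median 2.22). Of the 14 P450 transcripts 3 rose, beside the 14.2% of all transcripts. The largest called change among the heme transcripts was that of Dapma7bEVm029635t1, a chorion peroxidase precursor, at 4.45 ± 0.98. The hemoglobin transcript Dapma7bEVm011064t1 was at 2.26 ± 1.21 (edgeR, adjusted p = 0.164, and DESeq2, adjusted p = 0.0461). In it 2 of the 5 control values, 21.7 and 57.8 CPM, lay far above the others.

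In spring and late summer the difference from controls did not pass the test. Dapma7bEVm002278t1 had 87.9 to 1987 CPM in spring stormwater, against 221, 261, 620, 881, 631 and 392 CPM in the 6 spring controls, and the log2 fold changes, stormwater over controls, were 0.54 ± 0.33 and 0.69 ± 0.35 (edgeR, adjusted p = 0.653 and 0.541; 0.104% called). In late summer stormwater it had 58.6 to 1757 CPM with a median of 509 CPM, against 24.7 to 1683 CPM with a median of 321 CPM in the 10 controls, which are 2 sets with the same replicate numbers, and the values were 0.36 ± 0.41 and 0.41 ± 0.42 (adjusted p = 0.857 and 0.852; 0.0192% called). These rested in part on replicate 4 of the second control set (1683 CPM), without which they were 0.90 and 0.97 (adjusted p = 0.529 and 0.513). Without replicate 2 of the first set (24.7 CPM) they were 0.21 and 0.26, and without both second sets 0.84 and 1.02. The difference from controls was larger in early summer than in spring by 1.62 ± 0.51 for Dapma7bEVm002278t1 (interaction term, added after seeing the data, adjusted p = 0.0305; 6.91% called higher) and by 1.37 ± 0.51 for Dapma7bEVm027691t1 (adjusted p = 0.071). With both transcripts summed it was 1.41 (adjusted p = 0.0614), which is not past the threshold. From early to late summer it differed by -1.81 ± 0.63 and -1.65 ± 0.63 (adjusted p = 0.0934 and 0.121, with 1.28% called). For Dapma7bEVm002278t1, early summer over spring was 0.25 ± 0.16 in stormwater and -1.29 ± 0.48 in the controls. Neither value passed the edgeR test, and which of them the interaction rests on was not tested.

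Early and late summer controls were also set against spring controls, and neither comparison passed the test for ALAS. Between the controls themselves, early summer over spring gave -1.29 ± 0.48 and -1.02 ± 0.45 (adjusted p = 0.487 and 0.516), in a fit where edgeR called 0 transcripts (0%), DESeq2 called 223 and 2394 had an unadjusted p under 0.05. Late summer over spring controls gave -0.27 ± 0.63 and -0.18 ± 0.65 (adjusted p = 0.86 and 0.913; 1.25% called). The second over the first set of late summer controls gave 0.83 ± 0.85 and 1.02 ± 0.88 (adjusted p of 1 for both), with 0 transcripts called by edgeR (0%), 0 by DESeq2 and 390 at an unadjusted p under 0.05.

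**Figure D4:**
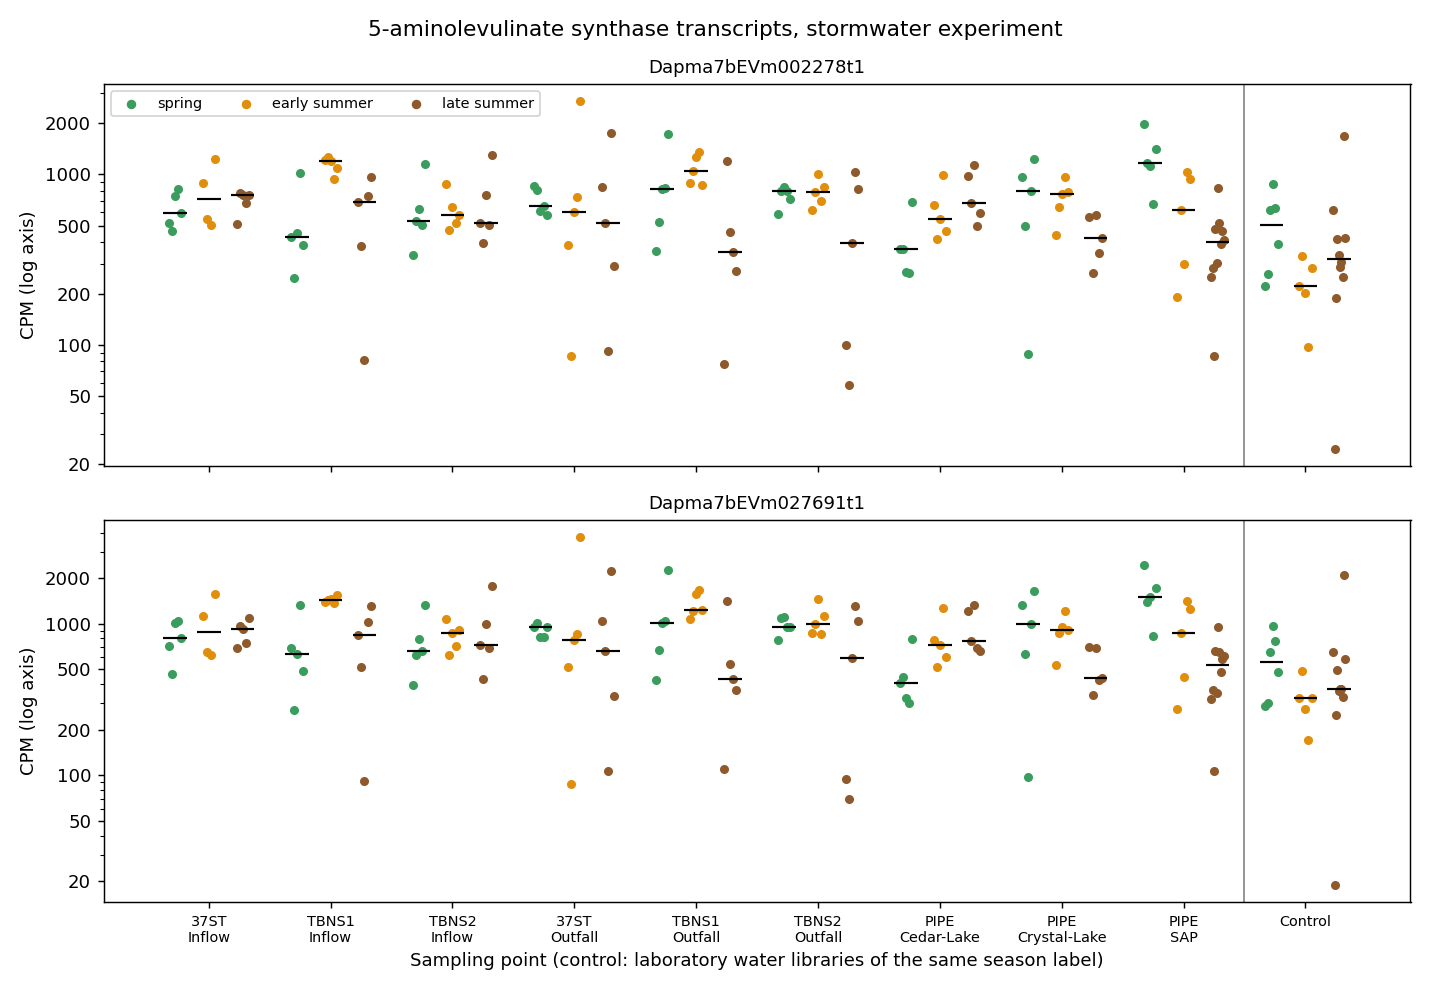
CPM (log axis) of Dapma7bEVm002278t1 (top) and Dapma7bEVm027691t1 (bottom) in each library of the stormwater experiment, by sampling point and season; points are libraries, bars are medians, and the controls stand at the right. The early summer controls lie between 97.8 and 333 CPM for Dapma7bEVm002278t1, and most stormwater libraries of that season lie above them.

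No sampling point stood out for ALAS. By the median of the summed pair, the 32 groups ran from 545 CPM in the early summer controls to 2627 CPM in spring PIPE-SAP water. In all 31 neighbouring pairs of this order the ranges overlapped, which sorting by median makes likely. TBNS1-Inflow in early summer, next to the highest, had 2317 to 2710 CPM for the summed pair and 37ST-Outfall in early summer ran from 174 to 6411 CPM. Across the 9 sampling points, with season as a covariate, the fitted range was 0.31 for Dapma7bEVm002278t1 and 0.38 for Dapma7bEVm027691t1 on the log2 scale (edgeR, adjusted p = 0.995 and 0.99; 3.7% called), whereas the hemoglobin transcript Dapma7bEVm011064t1 had a range of 4.71 (adjusted p = 1.53e-07).

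Sand filter treatment and pipes did not go with a detectable ALAS difference. Outfall over inflow, with season as a covariate, was 0.11 ± 0.36 and 0.14 ± 0.38 at 37ST, 0.12 ± 0.33 and 0.05 ± 0.33 at TBNS1, and 0.04 ± 0.31 and 0.06 ± 0.33 at TBNS2. No transcript was called in these fits by edgeR (0%); at an unadjusted p under 0.05 there were 747, 1476 and 1692 transcripts at 37ST, TBNS1 and TBNS2, and DESeq2 called 3 at TBNS1, 2 at TBNS2 and 0 at 37ST. Pipes over filter inflows gave -0.15 ± 0.16 and -0.19 ± 0.16 (adjusted p = 0.834 and 0.77; 1.52% called). In that fit the hemoglobin transcript fell by 2.58 ± 0.37 on the log2 scale (adjusted p = 9.03e-07), and 3 of 11 globins fell.

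**Figure D5:**
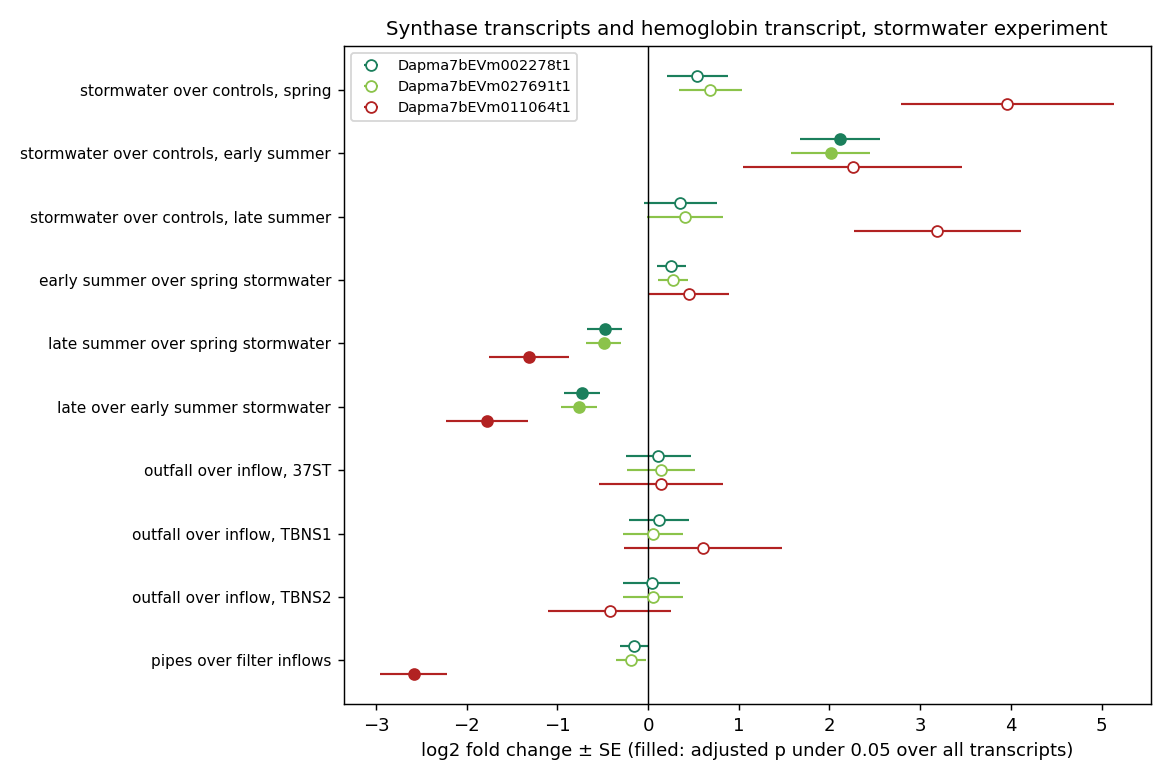
log2 fold change with its SE (horizontal axis) of both ALAS transcripts and of the hemoglobin transcript Dapma7bEVm011064t1 in the comparisons of the stormwater experiment; filled points have an adjusted p under 0.05. The ALAS pair is past the threshold in early summer over controls (2.12 and 2.01) and in late summer over early summer or spring stormwater. It is not past it in late summer over controls (0.36 and 0.41). Hemoglobin alone is past the threshold for pipes over inflows.

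Unspiked laboratory water of the wetland experiment held more ALAS than the controls of the stormwater experiment. In the wetland experiment 4 of the 5 unspiked laboratory libraries lay above all 21 controls of the stormwater experiment, whose median was 306 CPM for Dapma7bEVm002278t1 and 370 CPM for Dapma7bEVm027691t1. The log2 fold changes, wetland experiment over stormwater experiment, were 3.01 ± 0.51 and 2.85 ± 0.51, and 3.25 and 3.09 without replicate 1. The pair was chosen for its high level in these same 5 libraries relative to wetland water, so that the values are a description, with no test. The experiment, its genetic background and its laboratory water cannot be told apart in this comparison.

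Ordered by the median of the summed pair, the 15 groups of the wetland experiment were unspiked Woodland (363 CPM), unspiked LeSouer (389), unspiked Breen (468), spiked Breen (517), spiked Woodland (537), unspiked Kandiyohi (545), spiked LeSouer (740), spiked Kandiyohi (916), unspiked Douglas (1488), unspiked Kerk (1578), spiked Douglas (3277), laboratory water at the lower dose (4665), laboratory water at the higher dose (5260), spiked Kerk (7008) and unspiked laboratory water (8346 CPM). In all 14 neighbouring pairs of this order the ranges overlapped, which sorting by median makes likely and which does not show that neighbours were alike. All tests stand by themselves: p-values were adjusted over transcripts within each of 31 comparisons and not over comparisons, of which 6 called Dapma7bEVm002278t1 and 5 called Dapma7bEVm027691t1.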

How the data were processed

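Strand-specific libraries were made from pools of whole neonates. After trimming (Trimmomatic), the authors mapped the reads to transcripts with kallisto, and the deposited table holds its estimated count per transcript and library, not normalized. A linear model by which the authors removed variance between the experiments is not in these counts and was not applied. Values were rounded to whole numbers (31.4% of them had not been whole). Of 29127 transcripts, 2871 that did not vary within at least 1 experiment were left out and 26256 kept. The labels assigned 229 of 230 libraries to groups. In 1, the labelled season and the library code disagree, and it was left unassigned. No pair of replicate libraries agreed within sampling noise.

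Groups were compared with edgeR 4.0.16 in R 4.3.3 (quasi-likelihood F test after TMM scaling, p-values adjusted over all transcripts by Benjamini-Hochberg, threshold 0.05), each fit holding only the groups compared. Levels are CPM of the library total, and correlations use log2(CPM + 1). In data simulated from the real means and library sizes, with 100 transcripts changed 4-fold and 100 changed 2-fold, 67% and 8% of them were recovered for the lower dose over 0 ng/L in laboratory water (24384 transcripts), 84% and 63% for low over high quality (25612) and 94% and 87% for early summer over spring (25963). In the same fits, in that order, 7, 9 and 37 unchanged transcripts were called. The simulated libraries were drawn independently, with no effect shared by the pools of a wetland or water sample. The changed transcripts were taken from those above a minimum mean count. These shares therefore do not give the recovery with wetlands or water samples as the units. Alternatives were DESeq2 1.42.0, median-ratio size factors, filterByExpr, both ALAS transcripts summed, the replicate number as a block, covariates, counts summed per water, a pseudocount of 0.1, and libraries, sets or wetlands left out.

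The ALAS pair, the hemoglobin transcript and the lists were chosen with earlier results of these data known. Named are these 3 transcripts, those of the other heme transcripts in the study's tables that were past the threshold with the largest changes, and for each experiment the 5 transcripts of at least 1 CPM on average with the highest rho with the summed pair. No transcript sequence or position was used here.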

Additional observations from a re-analysis of the deposited data

Results flagged for a closer look

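In 90 combinations of group and ALAS transcript, 4 libraries stood apart from the others of their group by Dixon's criterion at the 95% level, which chance alone also meets in some groups (about 1 in 20). Unspiked replicate 4 of Kerk, left out of several fits above, was not among these libraries. Dapma7bEVm002278t1 was at 421 CPM in replicate 1 of unspiked laboratory water, against 2777 to 4382 CPM in the other libraries of the group. It was at 349 CPM in replicate 3 of Kandiyohi water at the lower dose, against 448 to 470 CPM in the others, and at 1683 CPM in replicate 4 of the second set of late summer controls, against 251 to 424 CPM in the others. Dapma7bEVm027691t1 was at 18.9 CPM in replicate 2 of the first set of late summer controls, against 249 to 655 CPM in the others, and Dapma7bEVm002278t1 was at 24.7 CPM in that library.

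The difference between stormwater and its controls was larger in early summer than in spring for Dapma7bEVm002278t1, by 1.62 on the log2 scale (interaction term chosen after seeing the data, edgeR, adjusted p = 0.0305). The value for Dapma7bEVm027691t1 was 1.37 (adjusted p = 0.071). For Dapma7bEVm002278t1, early summer over spring was 0.25 in stormwater (edgeR, adjusted p = 0.217) and -1.29 in the controls (adjusted p = 0.487). Neither value was past the threshold, and which of them the interaction rests on was not tested.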

How the results depend on the processing

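Leaving out wetlands, single unspiked libraries of the wetland experiment in some comparisons or single stormwater controls, the tests over wetland means and the interaction of season and stormwater were chosen after seeing the data. Of 390 fits of the ALAS transcripts under alternatives other than leaving out a library or wetland, 365 kept direction and side of the threshold, and of 468 that left one out, 428 did. For the others the cause was not tested. The 390 include the exact tests over wetland means, which set an unadjusted p against the threshold. What libraries with the same replicate number share is not stated. The mean correlation of their deviations was 0.033 in the stormwater experiment, against -0.0081 for different numbers. In the wetland experiment these were -0.013 and 0.0040. With the replicate block, low over high quality was -1.74 and -1.78 (edgeR, adjusted p = 0.11 for both) and the early summer over spring difference from controls 1.56 for Dapma7bEVm002278t1 (adjusted p = 0.0682), neither past the threshold, and the sign of values that were never called turned at 37ST (-0.036 and -0.029) and in Breen (-0.0063). Low over high quality was also lost with counts summed per wetland (-1.97 and -2.05). Over wetland means (-1.50 and -1.55) the exact permutation test could not pass, since its smallest p is 0.1. Leaving out a library or wetland gave -2.47 to -1.58 and -2.57 to -1.57. The late summer over spring calls were lost with counts summed per water sample (-0.47 and -0.48), with the sampling point as covariate (-0.49 and -0.49), without the second sets (-0.45 and -0.46) and with the unassigned library as labelled (-0.46 and -0.46). With both transcripts summed, the early summer over spring difference from controls was 1.41. Calls were gained for the lower dose over 0 ng/L in wetland water with the wetland as covariate (0.72 and 0.74) and in LeSouer water by DESeq2 (1.16 and 1.14). Over wetland differences (0.84 and 0.87) the exact permutation test gave p = 0.03125, which is not adjusted and is the smallest that 6 wetlands allow. Leaving out a wetland or unspiked replicate 4 of Kerk from the comparison over all wetlands gave 0.46 to 1.23 and 0.50 to 1.37. Leaving out single libraries gave 0.96 to 1.35 for both transcripts in LeSouer water (Dapma7bEVm027691t1 was called without spiked replicate 1), -0.25 to 0.22 and -0.13 to 0.32 in Breen water, and for Dapma7bEVm027691t1 -0.49 to 0.0061 at the higher dose over 0 ng/L and -0.70 to 0.040 in late summer over spring controls. For the second over the first set of controls Dapma7bEVm002278t1 ran from -0.11 to 1.24. With the replicate block the hemoglobin calls were lost in Breen (8.36, adjusted p = 0.94), Douglas (8.31, 0.147) and Kandiyohi (8.56, 0.666). The hemoglobin value, never called there, was -0.067 in early summer over spring with the sampling point as covariate and 0.26 in outfall over inflow at TBNS2 without season. The number of transcripts called moved by over 1.5 times in 42 of 193 fits, among them low over high quality (4, against 24 by DESeq2 and 0 with the block or with sums per wetland). All ALAS values lay above 3 counts.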

Other observations

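The library that was assigned to no group, labelled late summer at 37ST-Inflow, had 903 CPM of Dapma7bEVm002278t1, 1422 CPM of Dapma7bEVm027691t1 and 38.0 CPM of the hemoglobin transcript Dapma7bEVm011064t1.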
